A study of Mus musculus with 13 samples.

Results

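The MHC class II genes measured here were the 7 genes *H2-Aa*, *H2-Ab1*, *H2-Eb1*, *H2-DMa*, *H2-DMb1*, *Cd74* and *Ciita*, taken by name from the 34419 genes of the count table. All 7 were among the 17779 genes that passed a filter on low counts. They were read in gluteal white adipose tissue (WAT), the subcutaneous fat over the rump, of male C57BL/6J mice killed at 13 weeks of age. They had lived since birth at 22°C (7 mice) or 29°C (6 mice), where 29°C is close to thermoneutrality. In both groups the posterior hair was removed after weaning and mice were housed singly with little bedding, so the groups differed in housing temperature alone as far as the labels say. RNA of whole tissue was sequenced, 1 library per mouse.

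MHC class II molecules are pairs of an α and a β chain that carry peptides from endosomes to the cell surface, where CD4+ T cells read them. New pairs are held by the invariant chain CD74 until endosomal proteases cut it, and H2-DM then exchanges the last fragment for a peptide. Macrophages, dendritic cells and B cells make most class II, adipocytes can make some, and transcription depends on the coactivator CIITA, which binds to factors already sitting on the promoters of class II genes. C57BL/6J mice carry the b haplotype, in which the E α chain is not made, so H2-Eb1 has no usual partner in these mice; *H2-Ea* was not analysed here.

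Housing temperature did not change any of the 7 class II genes past the threshold. With edgeR's quasi-likelihood test and Benjamini-Hochberg adjustment over all genes, 0 of 7 had P-adj below 0.1, the threshold for a call, against 1.94% of all genes tested in either direction and 1.21% that were lower at 22°C. At an unadjusted p below 0.05, 0 of 7 passed, against 18.5% of all genes. DESeq2 also called 0 of 7, against 1676 of all 16388 genes it tested. Without 22°C replicate 2, the mouse with the most class II RNA, 3 of 7 had an unadjusted p below 0.05 in edgeR. These were *H2-Aa* (0.0452), *H2-Ab1* (0.0187) and *H2-Eb1* (0.0183), and still 0 had a P-adj below 0.1. The share of all genes at an unadjusted p below 0.05 was not counted in that fit, which called 277 of 17635 genes. Without 22°C replicate 1, the mouse with the least class II RNA, the same 3 genes had unadjusted p of 0.377, 0.133 and 0.205 (edgeR). All 7 had a log2 fold change (22°C relative to 29°C) below 0, as did 48.4% of all genes, with a median of -0.18 against 0.0074 for all genes tested. The 7 are not independent, since their levels moved together from mouse to mouse. In none of the 7 did the libraries of one temperature lie wholly apart from those of the other, which 1.24% of all genes did.

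The adipose label held in every library, with *Adipoq*, the adipocyte hormone adiponectin, whose mean ± SD was 2239 ± 436 CPM (counts scaled to a library of 1e6 counts with TMM factors) over the 7 mice at 22°C against 2779 ± 289 CPM over the 6 at 29°C. Total counts were between 22356637 and 25245785 per library and fell into a cluster of 5 lower totals, all at 22°C, and a cluster of 8 higher totals with 2 libraries at 22°C and all 6 at 29°C. Skeletal muscle markers stood apart in the libraries of 22°C replicates 1 and 7, where the 12 muscle genes summed to 59790 and 80222 CPM against at most 12674 CPM in the other 11. *Acta1*, *Myh4* and *Atp2a1*, of skeletal muscle fibres, were the most abundant. All 12 had a log2 fold change above 0, between 2.49 and 3.73. DESeq2 called 6 (*Acta1*, *Actn3*, *Atp2a1*, *Myh2*, *Myh4* and *Myl1*), beside 1676 of all 16388 genes it tested, and edgeR called none of the 12. None was at 0 in any library. The class II genes took between 0.0543% and 0.158% of all counts. In whole tissue, fewer class II-bearing cells and less class II RNA per cell cannot be told apart.

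*Cd74* (ENSMUSG00000024610.16), the invariant chain, was the most abundant of the 7. Its level in replicates 1 to 7 at 22°C was 306, 748, 542, 565, 428, 575 and 552 CPM. At 29°C replicates 1 to 6 had 643, 574, 658, 697, 455 and 583 CPM. Both the lowest and the highest mouse were housed at 22°C, and the 29°C values lay between them. Mean ± SD was 531 ± 137 CPM over the 7 mice at 22°C against 601 ± 85.5 CPM over the 6 at 29°C. The log2 fold change was thus -0.18 with an SE of 0.17 (edgeR P-adj = 0.615).

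*H2-Ab1* (ENSMUSG00000073421.7), the β chain of the I-A molecule, had the largest difference of the 7. At 22°C it was 90.4, 242, 171, 166, 148, 193 and 157 CPM in replicates 1 to 7. At 29°C it was 219.5, 204, 237, 221, 162 and 194 CPM in replicates 1 to 6. At 22°C, 6 of the 7 mice lay below 5 of the 6 at 29°C, but replicate 2 at 22°C was the highest mouse of all. The log2 fold change was -0.31 (SE 0.17), with a 95% interval from -0.68 to 0.065 (P-adj = 0.366, edgeR).

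*H2-Aa* (ENSMUSG00000036594.16), the α chain that pairs with H2-Ab1, was 137, 297, 216, 204, 188, 249.8 and 199.999 CPM at 22°C. At 29°C it was 264, 242, 276, 266, 196 and 221 CPM. The order of mice was nearly that of *H2-Ab1*, and the log2 fold change was smaller, -0.20 (SE 0.15), with a 95% interval from -0.52 to 0.12 (P-adj = 0.515, edgeR).

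*H2-Eb1* (ENSMUSG00000060586.12), the β chain of the I-E molecule, was 72.4, 178, 129, 127, 107, 129.7 and 112 CPM at 22°C. At 29°C it was 153, 149, 172, 159.6, 118 and 129 CPM. Between temperatures it differed by -0.26 on the log2 scale, with an SE of 0.16 (edgeR P-adj = 0.406). The RNA was thus counted in every mouse of a strain that makes no I-E α chain.

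The 2 chains of the peptide exchanger H2-DM differed least between temperatures. *H2-DMa* (ENSMUSG00000037649.11) was 19.2, 28.1, 26.4, 23.6, 21.9, 31.1 and 26.6 CPM at 22°C and 24.99, 25.5, 26.6, 30.4, 23.2 and 26.4 CPM at 29°C. *H2-DMb1* (ENSMUSG00000079547.5) was 9.59, 19.5, 13.9, 16.6, 13.3, 21.8 and 15.9 CPM at 22°C and 17.9, 18.5, 16.7, 18.1, 12.2 and 15.1 CPM at 29°C. For both, replicate 1 at 22°C was the lowest mouse and replicate 6 at 22°C the highest, on either side of every mouse at 29°C. Their log2 fold changes were -0.050 (SE 0.10; 95% interval -0.27 to 0.17) and -0.054 (SE 0.17; 95% interval -0.41 to 0.30), with P-adj of 0.834 and 0.893 (edgeR). Without 22°C replicate 1 both turned to the other side of 0, at 0.0065 and 0.037. *H2-DMb1* has a near-identical neighbour, *H2-DMb2*, so its share of their reads is uncertain, and *H2-DMa* shares 360 exonic bases with *Brd2* on the opposite strand, whose reads cannot be told apart from its own without the strand setting.

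*Ciita* (ENSMUSG00000022504.11), the coactivator that switches class II genes on, was the least abundant. It was 5.64, 10.6, 8.47, 7.89, 6.53, 7.97 and 6.42 CPM at 22°C and 8.18, 9.995, 10.8, 9.1, 5.71 and 8.0 CPM at 29°C. The groups overlapped over almost their whole range. The log2 fold change was -0.18 (SE 0.16; 95% interval -0.53 to 0.18; P-adj = 0.609, edgeR). *Ciita* shares 329 exonic bases with *Dexi* on the opposite strand.

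**Figure D1:**
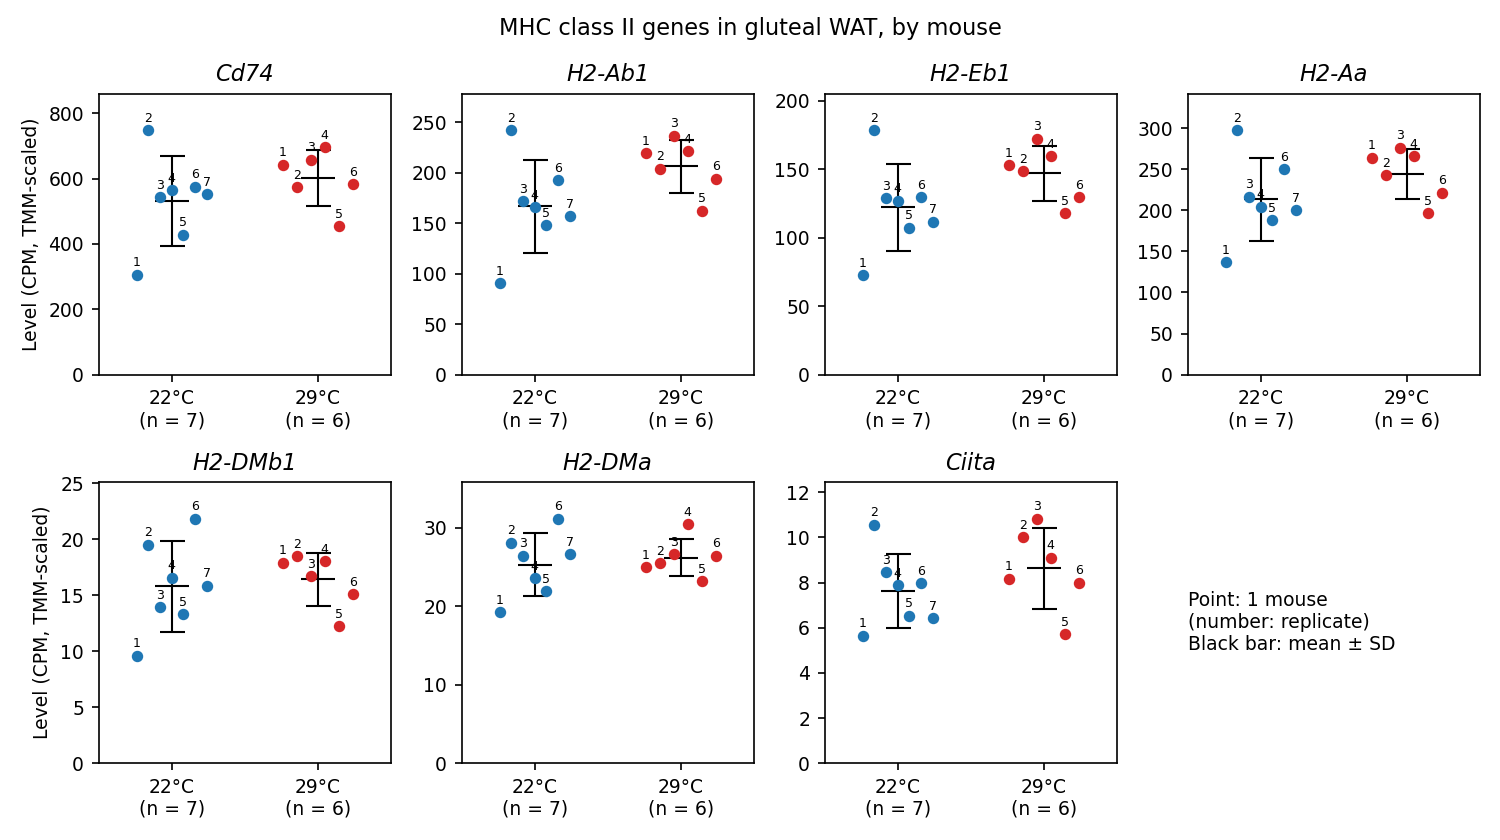
Level of each class II gene in each mouse, in CPM scaled by TMM factors, on axes that start at 0. Points are mice, numbered by replicate, and bars are the mean ± SD of 7 mice at 22°C and 6 at 29°C; replicate 1 at 22°C is the lowest mouse in all 7 panels, from 306 CPM for *Cd74* to 5.64 CPM for *Ciita*.

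The spread between mice was larger than the difference between temperatures. At 22°C the highest mouse was between 1.62-fold (*H2-DMa*) and 2.68-fold (*H2-Ab1*) above the lowest, and at 29°C between 1.31-fold and 1.90-fold. Replicate 1 at 22°C was the lowest of the 13 mice in all 7 genes, and replicate 2 at 22°C was among the 3 highest in all 7. Replicates 5 at 22°C and 5 at 29°C were among the 3 lowest in 6 and 5 of the 7 genes. Without 22°C replicate 1 the range at 22°C was between 1.42-fold and 1.75-fold. These mice also set the size of the log2 fold changes. Without replicate 1 and without replicate 2 at 22°C they were -0.20 and -0.42 for *H2-Ab1*, -0.17 and -0.38 for *H2-Eb1*, -0.11 and -0.29 for *H2-Aa*, and -0.081 and -0.28 for *Cd74*. For *Ciita*, leaving out 29°C replicate 3 gave -0.10 and leaving out 29°C replicate 5 gave -0.27. The library of 22°C replicate 1 is also 1 of the 2 with the most muscle RNA. The other, 22°C replicate 7, was among the 3 lowest mice in 3 of the 7 genes. A further fit took the muscle score, the mean log2 CPM of the muscle genes, as covariate. Log2 fold changes were then -0.22 for *H2-Ab1*, -0.20 for *H2-Eb1*, -0.14 for *H2-Aa* and -0.14 for *Cd74*. *Ciita* was at -0.061, *H2-DMa* at 0.0035 and *H2-DMb1* at 0.012. Without these 2 libraries the values were -0.17, -0.13, -0.081, -0.076, -0.062, -0.00059 and 0.050 in the same order. Beyond these fits, the part of muscle RNA in the class II levels was not tested.

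Per kilobase of exon, the order of the levels was *Cd74* (336 ± 69.8 CPM per kb, SD over 13 mice), *H2-Ab1* (72.0 ± 16.3), *H2-Eb1* (68.7 ± 14.9), *H2-Aa* (59.9 ± 11.5), *H2-DMb1* (9.57 ± 1.95), *H2-DMa* (7.45 ± 0.947) and *Ciita* (0.849 ± 0.180). Each gene was above the next in 13 of 13 mice, except that *H2-Ab1* was above *H2-Eb1* in 11 of 13. The order of the chains depended on the length used. Divided by the longest coding transcript instead of all exons, *H2-Aa* came second, at 202 CPM per kb, *H2-Ab1* next, at 153, and *H2-DMa* stood above *H2-DMb1*. Under both lengths *Cd74* was the highest and *Ciita* the lowest.

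Within a mouse the class II genes kept close to each other. After removing each group's mean, the 21 pairs of members had Pearson correlations between 0.625 and 0.986 over the 13 libraries, with a median of 0.846. The tightest pairs joined the classical chains and *Cd74*, such as *H2-Aa* with *H2-Ab1* (r = 0.986), and the loosest was *H2-DMa* with *Ciita* (r = 0.625). Without 22°C replicate 1 the range was 0.507 to 0.991. These are descriptions over 13 libraries, and 2 genes read in 1 library share its depth and its mixture of cells.

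A gene's promoter can show whether it carries the letters by which class II genes are usually recognised. RFX factors bind an X box and NF-Y binds a Y box, an inverted CCAAT, set a fixed distance further on, and CIITA joins the complex formed on both. RefSeq promoter windows of 250 bases before to 50 after the start (GRCm38.p6) were at hand for 4 of the 7 members, all on chromosome 17. The X box was searched as AGNN directly followed by ACNGATG and the Y box as CCAAT, both on either strand, where N is any base. Capitals mark their matches in the windows of *H2-Eb1*, *H2-DMb1* and *H2-Aa*. *H2-Eb1* and *H2-DMb1* held matches to both sets of letters, and *H2-Aa* held a match to CCAAT only.

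*H2-Eb1*, chr17:34305617-34305916, plus strand: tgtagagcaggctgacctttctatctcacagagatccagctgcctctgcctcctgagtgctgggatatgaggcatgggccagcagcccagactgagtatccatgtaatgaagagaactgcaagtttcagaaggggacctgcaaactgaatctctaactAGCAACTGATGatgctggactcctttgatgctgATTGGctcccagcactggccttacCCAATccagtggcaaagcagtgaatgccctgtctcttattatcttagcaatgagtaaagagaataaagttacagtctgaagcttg

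*H2-DMb1*, chr17:34152941-34153240, plus strand: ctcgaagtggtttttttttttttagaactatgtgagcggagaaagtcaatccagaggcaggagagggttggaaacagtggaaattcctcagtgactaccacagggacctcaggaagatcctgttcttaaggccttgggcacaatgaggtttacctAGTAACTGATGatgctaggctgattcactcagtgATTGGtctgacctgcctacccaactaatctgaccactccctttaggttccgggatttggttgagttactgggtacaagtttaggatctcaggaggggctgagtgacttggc

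*H2-Aa*, chr17:34287774-34288073, minus strand: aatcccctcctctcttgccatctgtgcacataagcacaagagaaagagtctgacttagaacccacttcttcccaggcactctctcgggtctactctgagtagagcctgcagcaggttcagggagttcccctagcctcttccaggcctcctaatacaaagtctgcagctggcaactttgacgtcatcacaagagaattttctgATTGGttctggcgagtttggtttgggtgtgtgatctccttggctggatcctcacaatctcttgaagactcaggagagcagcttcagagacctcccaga

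*H2-Eb1* held the X box AGCAACTGATG 92 bases before the start and ATTGG, the inverted CCAAT, 59 bases before it, so that their first bases lay 33 apart. Its window also held a CCAAT in forward direction 35 bases before the start, 57 from the X box. *H2-DMb1* held AGTAACTGATG at 95 and ATTGG at 61 bases, 34 apart. Among other class II chain genes, *H2-Eb2* held the same 11 letters as *H2-Eb1*, also 33 bases from an ATTGG, while *H2-Oa* held AGTGACAGATG at 98 bases from its ATTGG. The *H2-Aa* window held ATTGG 48 bases before the start and no match to the X box letters. The first of the 2 *H2-DMa* windows held neither, and the second held ATTGG at 198 bases without the X box letters. *H2-Ob* and *H2-DMb2* held ATTGG at 57 and 90 bases, also without the X box letters. The X box letters were in 0.968% of all 32851 windows, CCAAT or its inverse in 37.4%, and both in 0.387%. A match is a description of letters, not a bound site. The lack of a match to these exact letters does not show that an X box is absent.

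The ratio of the 2 chains of I-A differed between the 2 groups over all 13 libraries, although neither chain alone passed the test. The log2 ratio of *H2-Aa* to *H2-Ab1* counts was 0.598, 0.297, 0.336, 0.303, 0.347, 0.375 and 0.350 in replicates 1 to 7 at 22°C. At 29°C it was 0.265, 0.249, 0.222, 0.265, 0.274 and 0.192 in replicates 1 to 6. The groups did not overlap, and all 7 values at 22°C exceeded all 6 at 29°C. Mean ± SD was 0.373 ± 0.103 over 7 mice and 0.244 ± 0.0317 over 6, or 1.298 ± 0.0982 against 1.18 ± 0.0259 counts of *H2-Aa* per count of *H2-Ab1*. The difference of 0.128 had p = 0.00175 in a two-sided exact permutation test over all 1716 splits, and P-adj = 0.00874 over the 5 ratios compared.

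The nearest mice of the 2 groups were 0.0231 apart on the log2 scale, which is less than the counting error of the ratio in 1 library, between 0.0251 and 0.0449. Without 22°C replicate 1, whose ratio stood far above the other 6, the 22°C mean was 0.335 ± 0.0298 and the difference 0.0905 (exact permutation P-adj = 0.0108). Within the 8 libraries of higher totals the difference was 0.118, with p = 0.0357, the smallest that an exact permutation test allows there, and P-adj = 0.0893. That did not pass at P-adj below 0.05, the threshold used for ratios, where genes were called at 0.1. All 5 libraries of lower totals were at 22°C, so the comparison over all libraries mixes totals with temperature. Of all other genes tested, 0.444% had a ratio to *H2-Ab1* that was higher in every mouse at 22°C than in every mouse at 29°C. A ratio shows unequal change of 2 genes and not which of them changed.

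Of the other 4 ratios none passed at P-adj below 0.05 in the exact permutation test. *Cd74* to *H2-Ab1* and *H2-DMa* to *H2-Ab1* lay below the 0.1 used to call genes. *Cd74* to *H2-Ab1* had a log2 ratio of 1.68 ± 0.106 (mean ± SD over 7 mice) at 22°C against 1.54 ± 0.0711 (6 mice) at 29°C. Its difference of 0.137 had P-adj = 0.0544 in the exact permutation test, and leaving out 22°C replicate 5, 22°C replicate 6 or 29°C replicate 4 brought P-adj to 0.0325, 0.0487 and 0.0379. *H2-DMa* to *H2-Ab1* differed by 0.288 (exact permutation P-adj = 0.0544, and 0.0108 without 22°C replicate 2). *Ciita* to *H2-Ab1* differed by 0.174 (exact permutation P-adj = 0.177). The ratio of the chains of H2-DM, *H2-DMa* to *H2-DMb1*, was 0.705 ± 0.203 at 22°C against 0.682 ± 0.183 at 29°C, a difference of 0.023 that is less than the spread between mice (exact permutation P-adj = 0.811). The 4 ratios to *H2-Ab1* share its counts and are not independent.

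**Figure D2:**
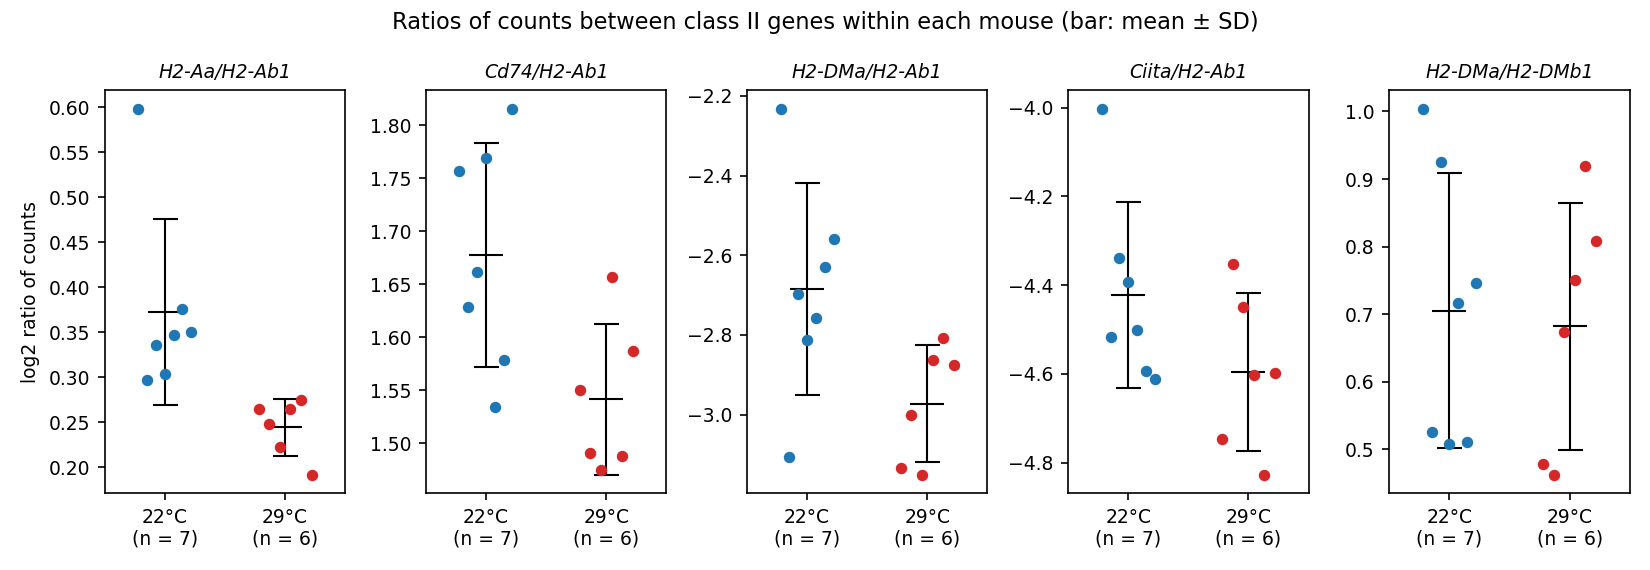
Log2 ratio of counts between pairs of class II genes within each mouse, with the scale of each panel set to its own range. Points are mice and bars the mean ± SD of 7 mice at 22°C and 6 at 29°C; for *H2-Aa* to *H2-Ab1* the lowest mouse at 22°C (0.297) is above the highest at 29°C (0.274), and in the other panels the groups overlap.

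Other class II chains were scarce. *H2-Ob*, the β chain of the H2-O protein that restrains H2-DM and is typical of B cells, was 1.21, 3.42, 1.59, 4.36, 1.44, 1.08 and 1.54 CPM at 22°C and 3.30, 1.51, 0.928, 1.05, 1.02 and 0.926 CPM at 29°C. *H2-DMb2* was 2.06, 3.08, 1.27, 3.398, 1.61, 2.58 and 2.44 CPM at 22°C and 3.99, 1.16, 1.62, 1.69, 0.704 and 1.35 CPM at 29°C. Replicates 2 and 4 at 22°C and replicate 1 at 29°C were the 3 highest mice for both genes. The same 3 mice had the most *Cd79a*, a signalling chain of the B cell receptor, at 3.25, 6.08 and 4.03 CPM. Summed over 9 B cell markers, none at 0 in any library, they had 21.8, 37.3 and 27.1 CPM against at most 14.5 CPM in the other 10 mice; the part of B cells in *H2-Ob* and *H2-DMb2* was not tested. They differed by 0.52 (SE 0.41) and 0.42 (SE 0.35) on the log2 scale between temperatures, with edgeR P-adj of 0.531 and 0.559. *H2-Oa* and *H2-Eb2* did not pass the filter, with at most 24 and 8 counts in a library.

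EdgeR called none of the 9 regulators of class II transcription. *Rfx5*, *Rfxap* and *Rfxank*, the subunits of the RFX factor, had log2 fold changes between -0.0072 and 0.068. *Nfya*, *Nfyb* and *Nfyc*, the subunits of NF-Y, stood at -0.20, 0.058 and 0.15. *Creb1*, which binds between them, was at -0.085, and *Spi1*, the factor PU.1 of myeloid and B cells, at 0.093. *Irf8*, a factor of monocytes and dendritic cells, had the lowest P-adj of the 9, at 11.3 ± 1.29 CPM (mean ± SD over 7 mice) against 14.7 ± 2.16 CPM over 6 at 29°C. It differed by -0.38 on the log2 scale, with an SE of 0.11 (edgeR P-adj = 0.116). It was called with DESeq2 and with upper quartile scaling.

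Interferon γ signalling, which induces *Ciita*, gave 0 calls among its 7 tested genes, with a median log2 fold change of -0.094. *Ifng* itself was below the filter. *Ifngr1* and *Jak1*, a receptor chain and its kinase, stood at -0.12 (SE 0.17) and -0.094 (SE 0.073). Among 11 genes of antigen processing and class II turnover, edgeR called 0. DESeq2 called 2, *Ctsb* and *Ctsl*, beside 1676 of all 16388 genes it tested. Of the 11, 8 lay below 0 and the median was -0.085. The lysosomal proteases *Ctsb*, *Ctsd* and *Ctsl* were the most abundant, at -0.26 (P-adj = 0.203, edgeR), -0.029 and -0.21 (P-adj = 0.202, edgeR). The 5 genes of co-stimulation and class II receptors had a median of 0.067 and no call, with *Cd86*, *Lag3* and *Cd80* at 0.067, -0.14 and 0.46.

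MHC class I, which presents peptides from the cytosol in nearly all cells, is the closest sister pathway. Of its 10 genes, edgeR called 0 and DESeq2 called 2, *B2m* and *H2-D1*, beside 1676 of all 16388 genes that DESeq2 tested. Of the 10, 8 lay below 0 and the median log2 fold change was -0.087. *B2m*, the chain shared by all class I molecules, was 1377 ± 192 CPM (mean ± SD over 7 mice) at 22°C against 1829.9 ± 173 CPM over 6 at 29°C, with every mouse at 22°C below every mouse at 29°C (log2 fold change -0.41, SE 0.11; P-adj = 0.106, edgeR), which no class II gene showed. *B2m* was also called with robust fitting and without 22°C replicate 6. *H2-D1* and *H2-K1*, the heavy chains, stood at -0.31 (SE 0.11; P-adj = 0.189, edgeR) and -0.18 (SE 0.13; P-adj = 0.465, edgeR). Whether class I and class II differed from each other was not tested.

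**Figure D3:**
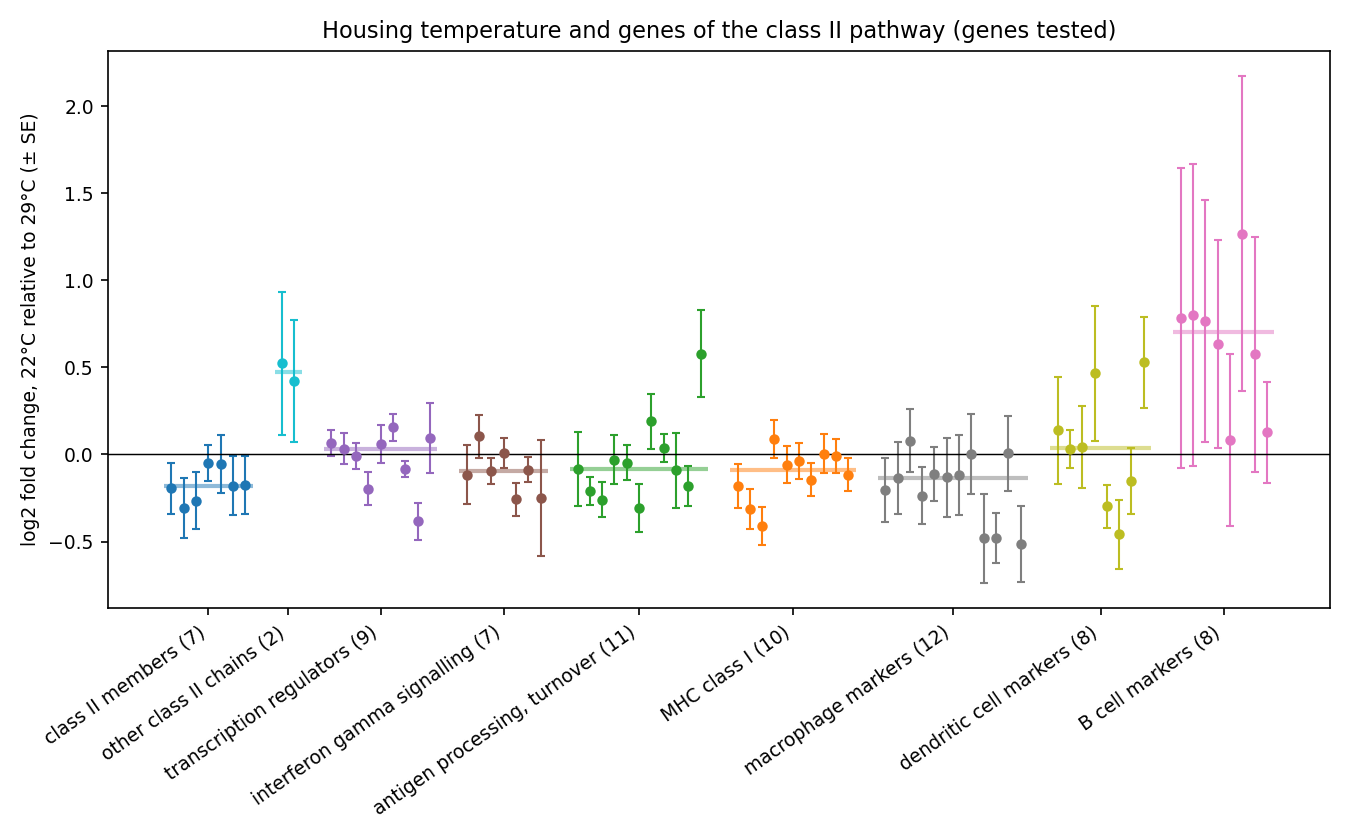
Log2 fold change (22°C relative to 29°C, ± SE, edgeR) of each tested gene in the class II pathway and in cell types that carry class II, with the number of genes tested in brackets and a bar at the median of each list. The 7 class II genes lie between -0.31 and -0.050, the 8 B cell markers between 0.083 and 1.27 with wide errors, and edgeR called none of the genes drawn.

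Across mice, class II RNA ran with a macrophage marker. *Cd74* and *Adgre1*, the macrophage surface protein F4/80, had r = 0.824 (P-adj = 0.00234, permutation test) and Spearman's rho = 0.824 (P-adj = 0.00678, permutation test) over the 13 libraries after removing group means. Within 22°C r was 0.822 (exact permutation P-adj = 0.0357), within 29°C 0.885 (exact permutation P-adj = 0.0583) and within the libraries of higher totals 0.834 (exact permutation P-adj = 0.0266). Without the 2 libraries farthest from the median of *Adgre1*, 22°C replicates 1 and 5, r was 0.611 (P-adj = 0.135, permutation test), so the relation rests in part on those mice. P-values were adjusted over 6 relations.

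*Cd74* and *Ciita* had r = 0.804 (P-adj = 0.00258) and rho = 0.687 (P-adj = 0.0358, both permutation tests), with 0.875 within 22°C, 0.787 within 29°C and 0.775 at higher totals. Without 22°C replicate 1 and 29°C replicate 5, the farthest from the median of *Ciita*, r was 0.684 (P-adj = 0.127, permutation test). *Cd74* and *Flt3*, a receptor of dendritic cells with at most 31 counts in a library, had r = 0.778 (P-adj = 0.00524) but rho = 0.495 (P-adj = 0.181, both permutation tests). Their r was 0.936 within 22°C, 0.546 within 29°C and 0.548 at higher totals, and fell to 0.327 without 22°C replicate 1 and 29°C replicate 5, so it rests on those mice. *Cd74* had r = 0.246 with *Cd79a* (rho = 0.225), 0.413 with the T cell receptor chain *Cd3e* (rho = 0.335) and 0.137 with *Adipoq* (rho = -0.104), with P-adj between 0.242 and 0.739 (permutation tests). Within 22°C and within 29°C these were 0.253 and 0.240 for *Cd79a*, 0.558 and 0.152 for *Cd3e*, and 0.293 and -0.528 for *Adipoq*. At higher totals they were 0.136, 0.129 and -0.298, and without the 2 farthest libraries 0.183, 0.219 and -0.522.

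**Figure D4:**
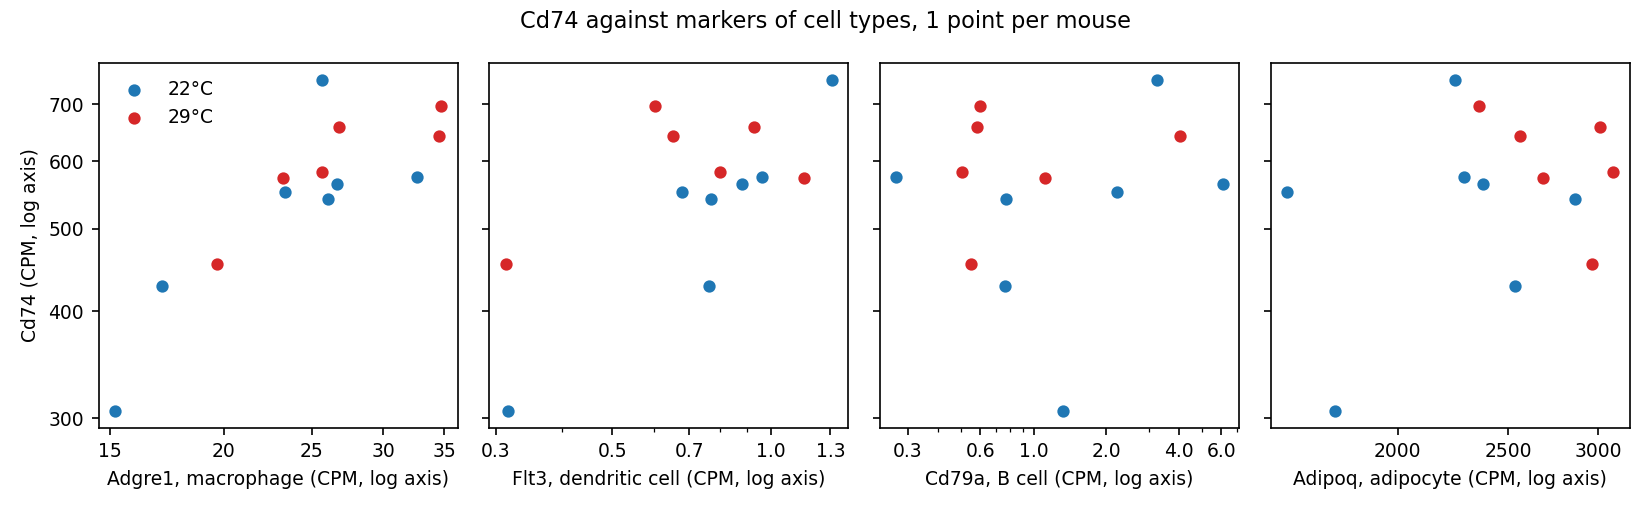
Level of *Cd74* against the level of a marker of macrophages, dendritic cells, B cells and adipocytes, in CPM on log axes, 1 point per mouse. *Cd74* runs with *Adgre1* at both temperatures (r = 0.822 within 22°C and 0.885 within 29°C), while with *Cd79a* (r = 0.246) and *Adipoq* (r = 0.137) the points scatter.

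The genes whose levels were most like those of the class II genes over the 13 mice were ranked by Pearson correlation with the mean log2 CPM of *H2-Aa*, *H2-Ab1*, *H2-Eb1* and *Cd74*, group means removed, among 15728 genes of at least 1 CPM. The 10 highest outside the members had r between 0.912 and 0.962. The first, *Mir5107* (r = 0.962), overlaps *Cd74* on the same strand and shares 12 exonic bases with it. Reads over those bases cannot be told apart by their place. *Pik3ap1* (0.954) and *Btk* (0.912) encode an adaptor and a kinase of signalling in B cells and myeloid cells, and *Pik3cg* (0.918) a lipid kinase of leukocytes. *Tlr7* (0.930) encodes an endosomal receptor for RNA and *Unc93b1* (0.921) the protein that brings such receptors to endosomes. *Mrc1* (0.927) and *Clec10a* (0.921) encode lectins of tissue macrophages, and *Slc11a1* (0.914) a metal transporter of phagosomes. *Gm16567* (0.923) overlaps 576 exonic bases of *C1s1* on the other strand. EdgeR called none of the 10, and without 22°C replicate 1 their r was between 0.798 and 0.930.

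By list, the 12 macrophage markers had a median r of 0.788 with the class II mean, from 0.474 (*Mertk*) to 0.927 (*Mrc1*). The median was 0.677 without 22°C replicate 1, and -0.00064 over all genes ranked. Medians were 0.510 for 3 T cell markers, 0.434 for 10 class I genes and 0.348 for 6 dendritic cell markers. The dendritic cell markers ran from -0.199 (*Clec9a*) to 0.901 (*Cd209a*, of monocyte-derived dendritic cells). Adipocyte markers had a median of 0.198 (8 genes), B cell markers 0.177 (6 genes) and muscle markers -0.227 (12 genes). These medians moved in both directions without 22°C replicate 1. They rose to 0.579 for T cell, 0.522 for dendritic cell and 0.247 for B cell genes. For class I genes the median fell to 0.116, and it changed sign for adipocyte (-0.145) and muscle genes (0.037). These correlations describe the same 13 libraries, share their depth and their mixture of cells, and carry no test.

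EdgeR called none of the 12 macrophage markers. DESeq2 called *Mertk* (edgeR log2 fold change -0.48, SE 0.14, P-adj = 0.131), beside 1676 of all 16388 genes it tested. Of the 12 macrophage markers 9 lay below 0, and their median log2 fold change was -0.13, beside -0.18 for the class II genes. Their sum was between 723 and 1485 CPM at 22°C and between 817 and 1558 CPM at 29°C, with no marker at 0 in any library, and their part in the class II levels was not tested. The most abundant, *Lyz2*, *Csf1r* and *C1qb*, stood at 0.0076, 0.079 and -0.12. Dendritic cell markers summed to between 30.1 and 41.3 CPM over all mice, 0 of 8 were called and their median was 0.036; *Zbtb46*, *Cd209a* and *Siglech* were the most abundant, at 0.031, -0.46 and 0.53. All 8 B cell markers tested lay above 0, with a median of 0.70 and no call, and *Cxcr5* and *Cd79b* stood at 0.13 (SE 0.29) and 0.63 (SE 0.60). Of 8 adipocyte markers 0 were called and 4 lay below 0, with a median of -0.025.

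The only gene that edgeR called in any of the lists was the T cell receptor chain *Cd3e*, which is not particular to CD4+ T cells. It was 0.843, 2.03, 0.770, 1.55, 0.466, 0.655 and 0.949 CPM at 22°C and 0.307, 0.425, 0.541, 0.188, 0.235 and 0.0842 CPM at 29°C. Of the 7 mice at 22°C, 6 were above every mouse at 29°C. *Cd3e* was higher at 22°C by 1.78 on the log2 scale, with an SE of 0.42 (edgeR P-adj = 0.0817), at no more than 48 counts in a library. DESeq2 gave it no adjusted p (unadjusted p = 4.17e-05), and its call was lost when any of 10 of the 13 libraries was left out, namely 22°C replicates 1, 2, 4 and 7 and each of the 6 at 29°C. *Cd4* had 0.26 (SE 0.38, P-adj = 0.760, edgeR) and *Cd8a* 1.01 (SE 0.57, P-adj = 0.366, edgeR). The other T cell markers tested, *Cd3g*, *Lck*, *Cd28* and *Cd2*, were not called either. Of the 6 T cell markers tested, 5 lay above 0 and 1 below.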

How the data were processed

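RNA-seq libraries of gluteal WAT from 13 mice were compared, 7 at 22°C and 6 at 29°C, grouped as the sample titles give temperature and number. Each titled replicate was taken as 1 mouse, and p-values measure the spread between these libraries. Per the labels, the authors aligned reads with STAR 2.7.5a to GRCm39, counted them with featureCounts and deposited raw counts of 34419 genes. A second deposited table holds log2 values that the authors regularized with DESeq2. The strand setting and annotation are not given in the sources used here. Symbols were matched by gene identifier without version (34006 matched), and exon lengths and overlaps came from GENCODE M21 (GRCm38). No coordinates in the files' build are given.

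Counts were tested with edgeR 4.0.16 (R 4.3.3), with filterByExpr, TMM factors and the quasi-likelihood F test; P-adj below 0.1 is a call. SE is the absolute log2 change over the root of its F. Log2 CPM used a prior count of 2. The limit behind a 0 was set at 3 counts, which is 0.113 to 0.158 CPM; limits and counting errors cover counting error only. Ratios were compared by exact permutation at P-adj below 0.05, correlations with 100000 resamples or exactly. The lowest chi-square per gene over 78 pairs of libraries was 15.5, so each library counts once. On simulated counts of this comparison, the edgeR fit called 65.8% of 73 genes changed 2-fold and 91.4% of 70 changed 4-fold, with 9 false calls among 17935 genes.

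The members and all lists, written from general knowledge, were chosen with earlier results of these data known. Named genes are the members, other class II chains and regulators, the called and the 3 most abundant tested genes of other lists, the correlation partners and the 10 genes most like the members; some that the rule gives are not reported, other genes named were chosen after their values were seen, and markers of lymph node stroma, endothelium and epithelium, none called, are given by count only. Lymph node stroma had 1 of 3 tested genes above 0, endothelium 1 of 6 and epithelium 0 of 3. Alternatives were DESeq2 1.42.0, other scalings and filters, robust fitting, limma 3.58.1 on the deposited log2 values, P-adj below 0.05, the cluster of totals or the muscle score as covariate, the higher cluster alone, a replicate block, each library left out, and, added after seeing the data, the 2 libraries of highest muscle score left out.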

Additional observations from a re-analysis of the deposited data

Results flagged for a closer look

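The log2 ratio of *H2-Aa* to *H2-Ab1* counts in 22°C replicate 1 was 0.598, far above the other 6 mice at 22°C, which lay between 0.297 and 0.375. The gap to its nearest neighbour was 0.740 of the group's range. It was the 1 value so marked among 24 groups of samples examined, and chance marks about 1 in 20. The counts of both genes were the lowest of the 13 libraries there, with 1715 for *H2-Ab1*, and the library had 59790 CPM of muscle markers; the part of either in the ratio was not tested.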

How the results depend on the processing

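None of the 7 class II genes was called in any of 26 alternatives, and 173 of their 182 log2 fold changes kept their sign. The exceptions were *H2-DMa* and *H2-DMb1*, at 0.142 and 0.20 with the cluster of totals as covariate, 0.133 and 0.190 in the higher cluster alone, 0.0035 and 0.012 with the muscle score as covariate, -0.107 to 0.0065 and -0.150 to 0.037 with each library left out (above 0 without 22°C replicate 1), and *H2-DMb1* at 0.050 without the 2 libraries of highest muscle score. Their lowest P-adj in any alternative was 0.194 (*H2-Eb1*, edgeR, without 22°C replicate 2). The number of genes called, 345 (130 higher, 215 lower), was 1676 with DESeq2 (914 higher, 762 lower), 42 with no filter, 40 at P-adj below 0.05, 214 with the replicate block, 4 with the cluster as covariate, 8 in the higher cluster, 46 with the muscle score, and 32 to 652 with each library left out. In the other lists 1 gene was called, *Cd3e*, against 12 with DESeq2 (6 of muscle, 2 each of class I and antigen processing, *Irf8* and *Mertk*), 2 with upper quartile scaling or robust fitting, 0 with no filter, at P-adj below 0.05, with the block, with the cluster or muscle score as covariate, in the higher cluster and without the 2 libraries of highest muscle score, and 0 to 2 with each library left out.

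The *H2-Aa* to *H2-Ab1* difference was 0.0905 to 0.141 with each library left out, 0.132 with the replicate block (exact permutation p = 0.0312, the smallest that 6 pairs allow; P-adj = 0.156) and 0.118 in the higher cluster. With each library left out, *H2-DMa* to *H2-DMb1* was -0.0268 to 0.0704, *H2-DMa* to *H2-Ab1* 0.212 to 0.358 and *Cd74* to *H2-Ab1* 0.114 to 0.161. In the higher cluster *H2-DMa* to *H2-DMb1* was -0.0535 and *Ciita* to *H2-Ab1* -0.0063. The correlation of *Cd74* with *Ciita* was 0.684 without the 2 farthest libraries and 0.775 in the higher cluster, with *Adgre1* 0.611 without them, with *Flt3* 0.327 and 0.548, and with *Adipoq* -0.522 and -0.298. The cause of these changes was not tested.

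Same-numbered libraries correlated in their deviations by 0.0508 to 0.513, and 5 of the 6 pairs were at 0.348 or above. Of the 6 at 22°C, 4 correlated best with their own number, a hint of pairing in the data. Nothing in the labels says what a number shares and 1 pair was under 0.1, so the numbers were not taken as pairs. The lower cluster of totals holds 1 temperature only, and within it temperature cannot be compared.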
